A study of Mus musculus with 20 samples.

Results

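Kdm6b knockdown was compared with control in cultures of mouse cerebellar granule neurons, across all genes expressed in them. The comparison used the 5 control and the 5 shKdm6b libraries, 10 of the 20 libraries of the series, and set each shKdm6b library against the control library with the same number in its name. shKdm6b cultures received an shRNA against mouse Kdm6b. The labels do not say what control cultures were infected with, and they give no strain, age or sex of the mice. The series' design text describes infection on day 1 in vitro, the antimitotic AraC on day 2 and RNA harvest on day 7; it does so for the cultures co-infected with a human KDM6B domain, and no other schedule is given. The 10 rescue libraries entered the fit as 2 groups of their own and are not described here. Whether each library was its own culture or animal is not stated, and p-values here reflect only the spread among these libraries, which may be technical.

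Kdm6b encodes a demethylase that takes repressive methyl groups off histone H3, groups that Polycomb complexes put on and that keep developmental genes silent. Granule neurons are the small excitatory neurons of the cerebellum. After their last division they grow axons, migrate inward, form synapses and switch from early genes such as Barhl1 and Tubb3 to late ones such as Grin2c, Gabrd and Cbln3.

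The total estimated count per library ran from 16145488 to 20673156, and 15284 of 24411 genes passed the expression filter. Levels are given as CPM (counts scaled to a common library size) and differences as log2 fold changes, shKdm6b minus control, with the standard error (SE) of edgeR's quasi-likelihood fit. A gene was called when its p-value, adjusted over all tested genes, was under 0.05. The ribosomal RNA precursor Rn45s took 2.429 to 7.245% of counts where the number was 1 to 3 and 0.2058 to 0.6115% where it was 4 or 5, in both groups alike. Those numbered 4 also had the lowest summed level of 15 granule neuron markers (3208 CPM in control 4 and 2420 CPM in shKdm6b 4) and the highest of 18 astrocyte and Bergmann glia markers (18580 and 17080 CPM). All 15 granule neuron markers, among them Pax6, Rbfox3, Zic1 and Neurod1, passed the filter. So did all 18 astrocyte, 18 microglia, 18 fibroblast and mural cell and 12 endothelial markers, so passing it does not identify the cell type. Summed fibroblast and mural cell markers exceeded the granule sum in numbers 3, 4 and 5 of both groups (26530 against 7865 CPM in control 5) and lay below it in numbers 1 and 2. RNA of other cells was thus present beside that of the labelled cell type.

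Kdm6b itself was lower in every shKdm6b library than in its control. Its level was 141, 171, 139, 81.2 and 187 CPM in controls 1 to 5 and 99.4, 112, 89.3, 37.9 and 76.4 CPM in shKdm6b 1 to 5. The groups overlapped, because control 4 lay below 3 of the shKdm6b libraries, but within pairs the order held 5 of 5 times. The fitted change was -0.88 ± 0.21 (adjusted p = 0.0231, edgeR). The call was lost without control 4 or 5 or shKdm6b 1, 3 or 5 (adjusted p up to 0.0937) and without all libraries numbered 4 (0.0567). It held in numbers 1 to 3 alone (adjusted p = 0.00502, edgeR) and in the control and shKdm6b libraries alone (0.00579, edgeR). DESeq2 with the replicate number also called Kdm6b (0.00108). The reduction was larger in numbers 4 and 5 (-1.20) than in numbers 1 to 3 (-0.59; unadjusted p of the difference 0.00323, not under 0.05 after adjustment over all genes). Kdm6a, the X-linked paralogue with the same substrate, was not called (-0.099 ± 0.23).

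The knockdown came with 632 called genes of 15284 (4.14%), 263 higher (1.72%) and 369 lower (2.41%) in shKdm6b. The 2 sets differed in CPM, which is not corrected for gene length. Genes called higher had a median of 15.0 CPM in control, and 17 of them averaged under 1 CPM there. Genes called lower had a median of 59.3 CPM in control, and 10 averaged under 1 CPM in shKdm6b. The median rise was 0.70 and the median fall -0.62 on the log2 scale. At least 2-fold changes were found in 73 genes called higher and 59 called lower, and at least 4-fold changes in 15 and 8. Of these 8 falls, 4 (Zan, Duoxa2, Defb20 and Olfr90) were in genes high in controls 1 to 3 alone and low in the other 7 libraries, controls 4 and 5 included. All 5 pairs had the direction of the call for 257 of 263 higher and 359 of 369 lower genes.

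At least 1.5-fold changes were found in 378 called genes (2.47% of those tested). Values of the 2 groups mostly overlapped. Of the genes called, 53 of those higher and 38 of those lower had 5 control and 5 shKdm6b values that did not overlap (over all genes tested, called or not, 131 genes or 0.857%, 81 higher or 0.53% and 50 lower or 0.327%). Without the replicate number in the fit, edgeR called 1 gene (0.00654%), Camk2a, with 477 under an unadjusted p of 0.05. Leaving out shKdm6b 1 or shKdm6b 5 left 414 and 352 called genes, of which 399 and 351 were among the 632. The fit without the libraries numbered 4 called 990, of which 574 were shared. Numbers 1 to 3 alone gave 445 called genes (225 higher, 220 lower), of which 347 were shared, and numbers 4 and 5 alone gave 0 in edgeR, with 980 under an unadjusted p of 0.05. DESeq2 with the replicate number called 935 genes (6.12%), all 632 among them. A test of the difference between numbers 1 to 3 and numbers 4 and 5 called 0 genes in edgeR, with 516 (3.38%) under an unadjusted p of 0.05.

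**Figure D1:**
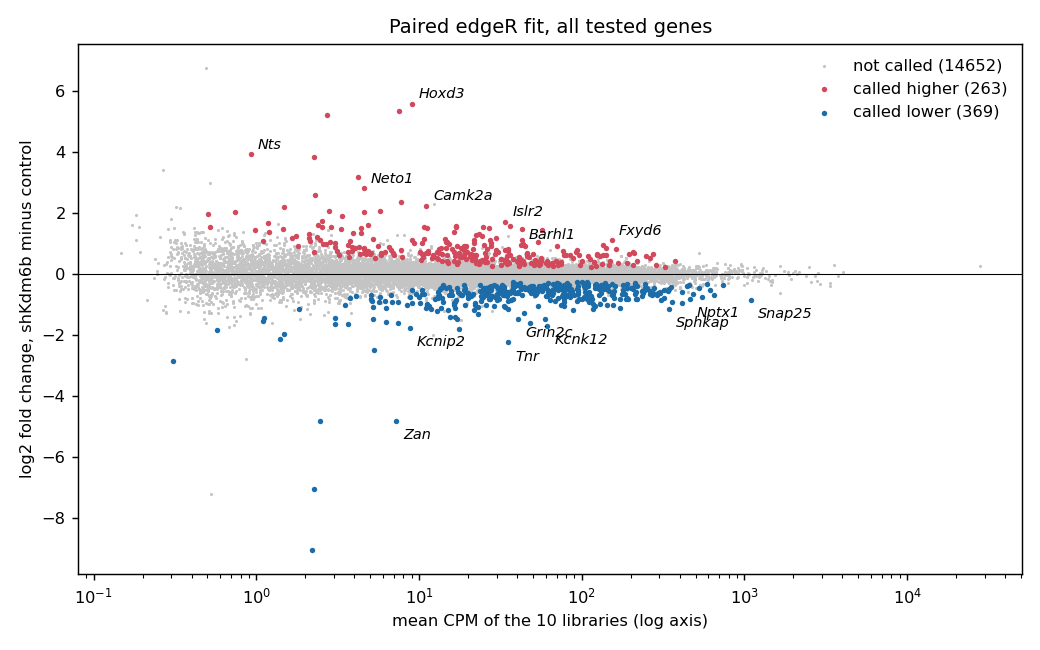
Log2 fold change, shKdm6b minus control, against the mean CPM of the 10 libraries (log axis) for the 15284 genes tested. Each point is a gene; red points were called higher (263), blue points called lower (369) and grey points not called. Red points lie mostly at low to middle levels and blue points at middle to high levels.

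The 25 named genes with the largest rises, taken among called genes with a mean of at least 5 CPM and all 5 pairs higher, ranged from 1.11 to 5.598 on the log2 scale. All 25 were also called without the libraries numbered 4, 23 kept their call whichever 1 library was left out, and 10 had groups that did not overlap. The first of them were genes of body patterning that controls barely expressed.

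Hoxd3, a homeobox transcription factor, stood at 0.0524, 0.0999, 0.05899, 1.12 and 0.584 CPM in controls 1 to 5 and at 6.51, 4.41, 3.68, 37.4 and 36.2 CPM in shKdm6b 1 to 5. Every shKdm6b library lay above every control, and shKdm6b 4 and 5 were the highest (5.598 ± 0.34, adjusted p = 1.89e-07). Hoxd3 overlaps Hoxd4 and Hoxd3os1, and counting may have split reads between them. Islr2, a membrane protein of growing axons, stood at 14.9, 8.69, 3.89, 34.7 and 19.9 CPM in the controls and 83.2, 33.3, 13.8, 57.7 and 67.05 CPM in shKdm6b (1.72 ± 0.28, adjusted p = 0.00179). Its groups overlapped through control 4, the highest control, although each pair rose. For these 2 genes, chosen among the large rises with a promoter entry, the 250 bases before the start that RefSeq's promoter table gives are printed 5′ to 3′ on the gene's strand, from RefSeq on GRCm38.p6 (mm10), with CpG dinucleotides in capitals since methylation and Polycomb silencing both bear on such sites. The Hoxd3 window (chr2:74711743-74711992, plus strand) held 12 CpG, or 0.802 of the number that its base composition predicts, and the Islr2 window (chr9:58204320-58204569, minus strand) 10, or 0.587.
Hoxd3: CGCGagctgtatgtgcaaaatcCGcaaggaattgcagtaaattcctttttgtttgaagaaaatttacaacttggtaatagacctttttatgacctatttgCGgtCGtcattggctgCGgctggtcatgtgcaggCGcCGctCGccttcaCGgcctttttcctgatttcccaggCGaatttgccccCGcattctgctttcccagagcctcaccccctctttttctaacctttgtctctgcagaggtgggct
Islr2: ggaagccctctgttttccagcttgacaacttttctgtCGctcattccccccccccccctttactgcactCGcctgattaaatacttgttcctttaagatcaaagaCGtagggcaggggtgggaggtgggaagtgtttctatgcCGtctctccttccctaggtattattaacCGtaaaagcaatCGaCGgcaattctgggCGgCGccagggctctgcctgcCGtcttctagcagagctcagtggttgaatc

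Pitx1, a homeobox gene of limb and pituitary development, followed the pattern of Hoxd3. It was at 0, 0.0999, 0.177, 1.42 and 0.117 CPM in the controls and 3.99, 3.14, 1.67, 43.3 and 21.02 CPM in shKdm6b (5.35 ± 0.42). shKdm6b 4 and 5 were again the highest, and the groups did not overlap. Galr1, a galanin receptor, rose by 2.36 from a level that differed by number, under 1 CPM in controls 4 and 5 and 2.67 to 4.89 CPM in controls 1 to 3.

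Camk2a, which encodes the alpha chain of a kinase abundant at excitatory synapses, went from 3.67, 5.89, 4.66, 2.599 and 2.63 CPM to 23.2, 24.02, 16.2, 12.3 and 14.8 CPM (2.25 ± 0.22, adjusted p = 4.07e-05). The lowest shKdm6b library exceeded the highest control. Syt5, a synaptotagmin, stood at 12.3, 16.1, 11.7, 22.2 and 10.6 CPM in the controls and 34.3, 42.99, 27.5, 37.8 and 29.8 CPM in shKdm6b (1.27 ± 0.13), again with no overlap. Kcnq5, a channel of the M current, rose by 1.55 and Kcnc4, a fast potassium channel, by 1.33. Kcnq5 was lowest in number 4, with 5.84 CPM in shKdm6b 4 against 26.2 to 32.8 CPM in the other shKdm6b libraries. Caly, an endocytic adaptor of neurons, rose by 1.51, Rit2, a neuronal Ras-like GTPase, by 1.56, and Caln1, a calcium sensor of the calmodulin family, by 1.12.

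Chrm3, the M3 muscarinic acetylcholine receptor, changed by 1.53 ± 0.38 and Pcdh17, a protocadherin, by 1.37 ± 0.32, and both calls depended on single libraries. Chrm3 lost its call without control 1, 2, 4 or 5 or shKdm6b 1, 2, 3 or 5 (adjusted p up to 0.101), and Pcdh17 without control 1 or 5 or shKdm6b 1, 2, 3 or 5 (up to 0.0786). Pair 4 hardly differed for Chrm3, at 1.54 CPM in control 4 against 1.89 CPM in shKdm6b 4. Without the libraries numbered 4 both were called, at 1.62 and 1.39.

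Among the other rises, Miat, a nuclear long noncoding RNA, stood at 18.2, 16.3, 13.2, 28.7 and 16.3 CPM in the controls and 60.2, 57.5, 39.2, 59.3 and 51.7 CPM in shKdm6b (1.59 ± 0.19). The groups lay apart although control 4 was the highest control. Hrk, a BH3-only protein that promotes neuronal apoptosis, rose from 31.97, 46.2, 40.4, 21.02 and 18.2 CPM to 119, 88.2, 84.1, 54.8 and 66.6 CPM (1.44 ± 0.17). Its lowest shKdm6b value, in number 4, exceeded the highest control. Insm1, a zinc-finger factor of neuronal progenitors, rose by 1.18. Fxyd6, a regulator of the sodium pump, rose by 1.11 at a higher level (58.2 to 183 CPM in control, 181 to 238 CPM in shKdm6b).

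Further rises were those of Unc5d, a netrin receptor (1.57), the chemokine gene Cxcl10 (1.499), Pcp4, a calmodulin-binding peptide (1.28), Vwa7 (1.17), Slc30a10, a manganese exporter (1.14), Nbeal2 (1.12) and Chst1, a sulfotransferase of keratan sulfate (1.11). Cxcl10 overlaps Art3, and Slc30a10 overlaps Gm2061, which was also called higher, so their reads are uncertain in the same way. Overlaps are not given for every named gene. Islr2, Vwa7, Gabrd, Ccdc63, Fbxl22, Doc2a, Cnih2, Kcnh3, Pax6 and Rtp4, among others, also overlap annotated genes, with the same uncertainty.

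**Figure D2:**
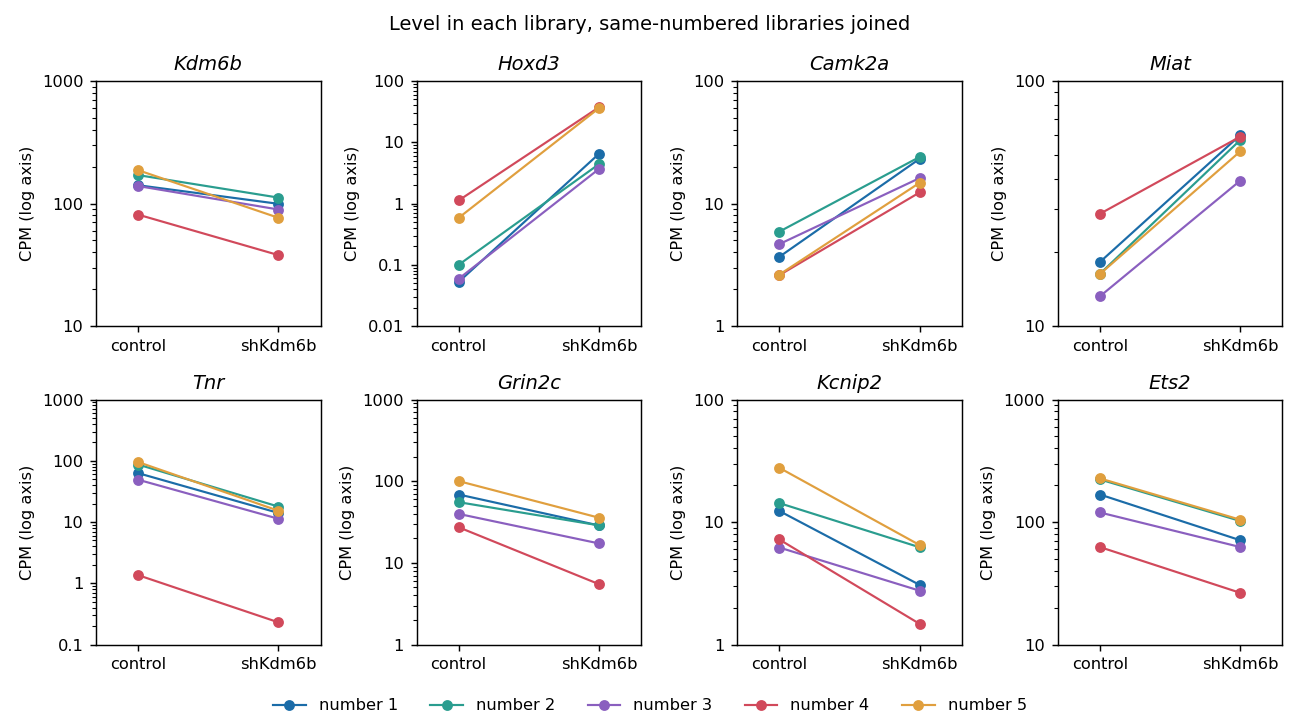
CPM (log axis) of 8 genes in control and shKdm6b, with a line and colour for each library number. Kdm6b, Tnr, Grin2c, Kcnip2 and Ets2 fell in all 5 pairs, and Hoxd3, Camk2a and Miat rose in all 5; number 4 is lowest for Kdm6b, Tnr, Grin2c and Ets2.

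The 25 named genes with the largest falls ranged from -4.80 to -1.13. They were taken among called genes with a mean of at least 5 CPM and all 5 pairs lower. All 25 were also called without the libraries numbered 4, 19 kept their call whichever 1 library was left out, and 5 had groups that did not overlap.

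Zan, which encodes zonadhesin of sperm, led by size, with a pattern of its own. It stood at 20.9, 26.9, 22.2, 0.177 and 0.409 CPM in controls 1 to 5 and 1.04, 0.213, 0.5400, 0.09202 and 0.182 CPM in shKdm6b 1 to 5 (-4.803 ± 0.80, adjusted p = 0.0023). It was therefore high in controls 1 to 3 and low in the other 7 libraries, controls 4 and 5 included. Tnr, the matrix protein tenascin-R, stood at 62.9, 86.9, 49.1, 1.36 and 95.5 CPM in the controls and 14.1, 17.9, 11.3, 0.2300 and 15.3 CPM in shKdm6b (-2.24 ± 0.38, adjusted p = 0.00286). Number 4 was far below the others in both groups, and without it the 4 controls lay at 49.1 to 95.5 CPM and the shKdm6b libraries at 11.3 to 17.9 CPM. The Zan window (chr5:137477065-137477314, minus strand) held 3 CpG, or 0.238 of the predicted number. The Tnr window (chr1:159523519-159523768, plus strand) held 2 CpG, or 0.147. Both are printed as above, as large falls with an entry. The printed windows were picked by size of change and do not represent the called genes. The median ratio was 0.636 for genes called higher, 0.697 for genes called lower and 0.708 for all tested genes. Entries covered 76.4%, 74.0% and 78.7% of these sets, so no comparison is drawn. The Zan window ends at the annotated gene start, whereas the Tnr window reaches past it (annotated start 159523729) into the gene, because the promoter table uses a later start.
Zan: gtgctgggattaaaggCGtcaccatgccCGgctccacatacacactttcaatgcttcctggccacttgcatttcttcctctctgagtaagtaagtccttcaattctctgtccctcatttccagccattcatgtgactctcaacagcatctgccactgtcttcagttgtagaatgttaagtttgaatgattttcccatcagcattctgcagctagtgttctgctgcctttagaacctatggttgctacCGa
Tnr: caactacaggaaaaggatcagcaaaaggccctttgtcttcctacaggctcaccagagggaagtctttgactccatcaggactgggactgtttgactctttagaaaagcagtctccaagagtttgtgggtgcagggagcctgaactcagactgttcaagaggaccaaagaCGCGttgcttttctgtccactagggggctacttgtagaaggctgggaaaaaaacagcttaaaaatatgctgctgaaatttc

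Several of the falls were in genes that mature granule neurons express. Grin2c, an NMDA receptor gene that granule neurons switch on late, went from 68.7, 55.4, 39.8, 27.3 and 100.3 CPM to 28.7, 28.7, 17.3, 5.47 and 35.7 CPM (-1.47 ± 0.28, adjusted p = 0.00543). Number 4 was lowest in both groups, and each shKdm6b library was below its own control. Gabrd, a subunit of GABA-A receptors outside the synapse, stood at 68.02, 71.7, 48.3, 59.4 and 87.9 CPM and 36.6, 40.4, 30.7, 5.34 and 31.8 CPM. Its groups did not overlap (-1.59 ± 0.41), shKdm6b 4 was far the lowest, and the estimate was -0.94 without control 4 and -0.98 without both libraries numbered 4. The Gabrd call was lost without control 5 or any 1 shKdm6b library (adjusted p up to 0.111).

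Ets2, a transcription factor of the ETS family, fell evenly. It stood at 168, 223, 119.7, 62.5 and 227 CPM in the controls and 70.97, 102, 62.4, 26.4 and 104 CPM in shKdm6b, and the 5 pair differences lay between -1.24 and -0.94 (-1.13 ± 0.08, adjusted p = 1.69e-06). The groups overlapped because control 4 was low. Tunar, a long noncoding RNA of neural cells, fell by 1.13 (-1.13 ± 0.12, adjusted p = 8.31e-05). Its estimate was -1.51 in numbers 4 and 5 and -0.89 in numbers 1 to 3. The unadjusted p of this difference was 0.00627 (edgeR), not under 0.05 after adjustment over all genes. Prmt8, a neuronal arginine methyltransferase, stood at 31.6, 32.9, 21.6, 16.004 and 22.9 CPM and 9.03, 13.9, 8.44, 5.11 and 10.1 CPM, with no overlap (-1.46 ± 0.19).

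Peptide receptor and release genes were also among the falls. Ramp3, which sets the ligand of calcitonin-family receptors, stood at 26.05, 24.3, 13.5, 22.4 and 25.2 CPM in the controls and 7.77, 11.5, 8.39, 5.71 and 10.4 CPM in shKdm6b (-1.39 ± 0.25). The highest shKdm6b value lay below the lowest control. Vipr1, a receptor of vasoactive intestinal peptide, changed by -1.57 ± 0.35, with little difference in pairs 2 and 3 (6.69 against 5.58 CPM and 3.72 against 3.39 CPM). The call did not hold without shKdm6b 1 or 5 (up to 0.0649) and in numbers 1 to 3 alone. Syt2, the fast calcium sensor of release, fell by 1.26 but was not called in a fit of the control and shKdm6b libraries alone (adjusted p = 0.1045, edgeR). Its fall was -0.67 in numbers 1 to 3 and -2.19 in numbers 4 and 5 (unadjusted p of the difference 0.000457, not under 0.05 after adjustment).

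The other falls included Ccdc63, a coiled-coil gene (-2.49, at 0 in shKdm6b 4), Mfsd4, a transporter-like gene that overlaps Elk4 (-1.802), the background potassium channel gene Kcnk12 (-1.71), Olfm3, an olfactomedin (-1.48), Fbxl22, an F-box gene (-1.48), Xk, a membrane protein gene on the X chromosome (-1.400), Ankrd34a (-1.31), Lzts1 (-1.21) and Cebpzos (-1.13), which overlaps Cebpz. Sphkap, an anchor of protein kinase A, stood at 487, 659, 436, 50.7 and 628 CPM in the controls and 197, 332, 227, 12.1 and 390.4 CPM in shKdm6b (-1.13 ± 0.26). Its call was lost without control 2 or 3 or shKdm6b 1 or 5 (adjusted p up to 0.0634). Galnt13, a mucin-type glycosyltransferase (-1.19), lost its call without control 3 or shKdm6b 1 or 5 (up to 0.0605). Dock4, an activator of Rac (-1.19), lost its call without any 1 control but control 4 or without shKdm6b 1, 4 or 5 (up to 0.094), and Epha5, an ephrin receptor (-1.18), without the same 4 controls or shKdm6b 1 or 5 (up to 0.0915).

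**Figure D3:**
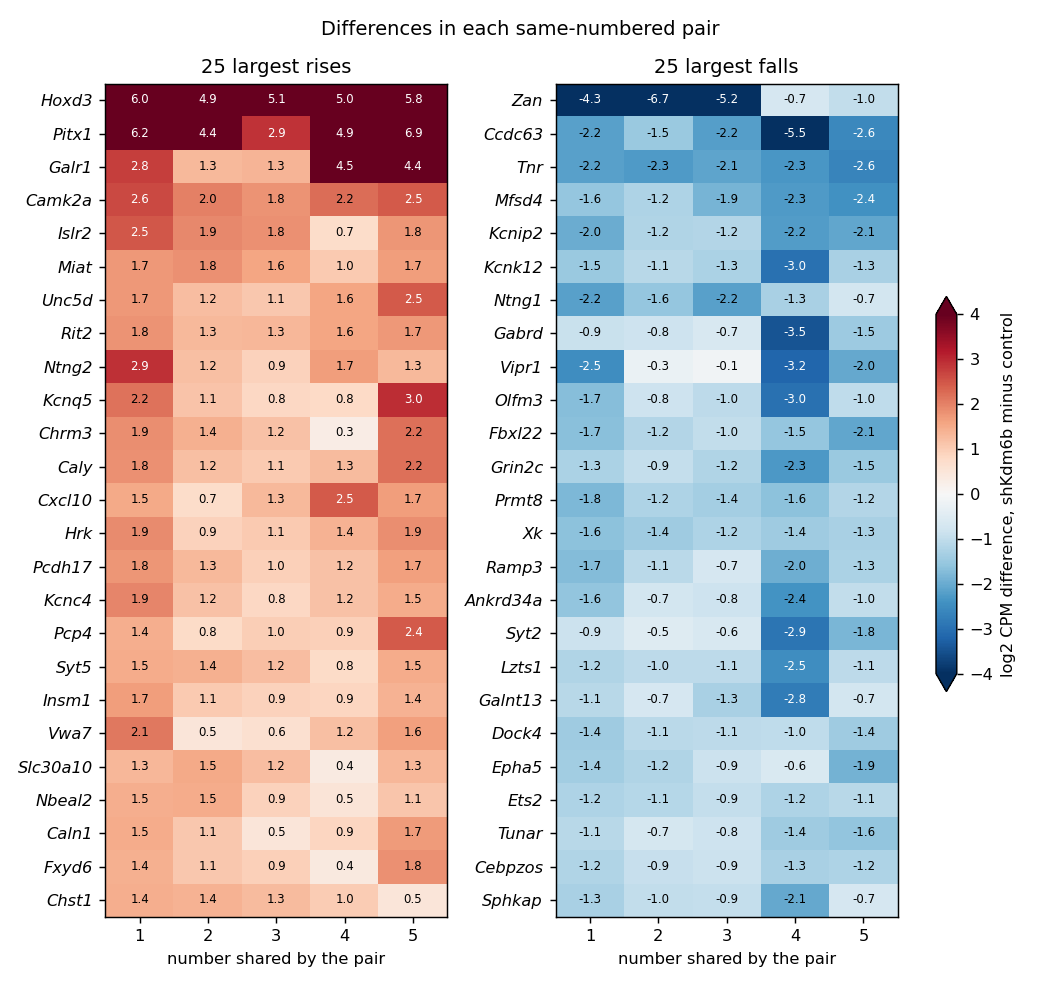
Log2 CPM difference, shKdm6b minus control, in each of the 5 same-numbered pairs for the 25 largest rises (left) and the 25 largest falls (right); colours are cut at 4 and -4 and each cell prints its value. Every cell has the sign of its panel because genes were taken only where all 5 pairs changed alike. Zan differs least in pairs 4 and 5, and pair 4 holds the deepest falls of Gabrd, Kcnk12, Syt2, Olfm3 and Galnt13.

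The 8 called genes with the highest mean CPM all fell. Snap25, a SNARE protein of vesicle fusion, stood at 1796, 1947, 1145, 497 and 1292 CPM in the controls and 1004, 1308, 835, 139 and 974 CPM in shKdm6b (-0.83 ± 0.17). It was lower in each pair, most in number 4, and changed by -0.59 without that number. Snap25 was not called in the fit of the control and shKdm6b libraries alone (adjusted p = 0.0802, edgeR). Serinc1, a membrane protein of serine incorporation, fell by 0.45 with its call kept in each fit that left out 1 library. Camk4, a nuclear calmodulin kinase abundant in granule neurons, changed by -0.67 ± 0.15, its call lost without shKdm6b 3 (adjusted p = 0.0512). Atp2b2, the plasma membrane calcium pump, changed by -0.66 ± 0.16 (lost without control 2 or 3 or shKdm6b 5, up to 0.0752), and Ywhag, an adaptor of the 14-3-3 family, by -0.32 ± 0.07 (lost without control 5 or shKdm6b 5, up to 0.0757).

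Calls of the other 3 rested on more libraries. Kcnc1, a fast potassium channel, changed by -0.53 ± 0.13 and lost its call without control 2, 3, 4 or 5 or shKdm6b 3 or 5 (adjusted p up to 0.094). Atp1b2, a sodium pump subunit, changed by -0.36 ± 0.10 and lost it without any 1 control or shKdm6b 1 or 5 (up to 0.101). Nid1, a basement membrane protein of the fibroblast lineage among others, changed by -0.76 ± 0.19 and lost it without control 1, 2, 3 or 5 or shKdm6b 1, 4 or 5 (up to 0.114). The summed level of 18 meningeal fibroblast and mural cell markers was lower in shKdm6b in 5 of 5 pairs (4725 to 26530 CPM in control, 4480 to 20640 CPM in shKdm6b); its part in the fall of Nid1 was not tested. In such bulk RNA, fewer cells of a type and less RNA per cell cannot be told apart.

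The 30 lists of genes by role were read against all tested genes, of which 1.72% were called higher and 2.41% lower, with a median log2 fold change of 0.01. Members of the lists were chosen with earlier results of these data known, so the shares only describe the lists and no list was tested. Late granule neuron maturation had the lowest median of the 30 and interferon-stimulated genes the highest. Of 32 tested genes of late maturation, 14 fell (43.8%), none rose and 18 were not called, with a median of -0.28, and the median was below 0 in all 5 pairs. Among the 14 were Vsnl1, a neuronal calcium sensor (-0.802), Cbln3, a cerebellin of granule neurons (-0.77), Etv1, an ETS factor of granule maturation (-1.02), Wnt7a, which granule neurons release onto mossy fibres (-0.73), Tiam1, an activator of Rac (-0.500), Chgb, a granin of dense-core vesicles (-0.69), and Grm4, a presynaptic glutamate receptor of parallel fibres (-0.58). Leaving out any 1 library gave 10 to 13 members lower and 0 or 1 higher; without the libraries numbered 4 the counts were 14 and 1.

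Vsnl1 stood at 289.9, 329, 205, 113 and 211 CPM in the controls and 165, 226, 132, 39.8 and 149 CPM in shKdm6b. Etv1 stood at 237, 248, 173, 28.3 and 356 CPM and 108, 148, 87.3, 12.4 and 163 CPM. Both were lower in each pair and lowest in number 4, and the groups of both overlapped. Slc17a7, the vesicular glutamate transporter of granule neurons, changed by -0.95 ± 0.26, but by -0.62 without control 4 and -0.54 without both libraries numbered 4. Its call was lost without control 1 or any 1 shKdm6b library (adjusted p up to 0.104).

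Early granule neuron and progenitor genes leaned the other way, with 5 of 33 higher, 2 lower, 26 not called and a median of 0.21, above 0 in all 5 pairs. Barhl1, a homeobox factor of granule precursors, stood at 24.9, 35.05, 30.6, 27.3 and 26.1 CPM in the controls and 54.9, 60.3, 54.3, 57.7 and 54.2 CPM in shKdm6b. The 5 values of each group were close together, and the groups did not overlap (0.98 ± 0.13, adjusted p = 0.000355). Tubb3, the neuronal beta tubulin, rose by 0.64, and Nnat, an imprinted gene of young neurons that overlaps Blcap, by 0.72 from levels that ran from 19.03 CPM in control 5 to 183 CPM in control 4. Boc, a Hedgehog co-receptor (-0.41 ± 0.10), and Cntn2, an adhesion protein of parallel fibres (-0.54 ± 0.13), were the 2 lower members. Boc lost its call without control 2 or 3 or shKdm6b 5 (adjusted p up to 0.0712), and Cntn2 without control 2, 3 or 5 or shKdm6b 3 or 5 (up to 0.068). Without the libraries numbered 4, 8 were called higher and 2 lower.

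Transcription factors of the granule lineage held 4 higher and 4 lower calls among 49, with a median of 0.03. Besides Barhl1 and Insm1, the higher ones were Pax6 (0.41 ± 0.11) and Meis1 (0.31 ± 0.08), whose calls were each lost in 7 of the 10 fits without 1 library (adjusted p up to 0.171 and 0.12). The lower ones were Etv1, St18, a zinc-finger repressor (-0.98), and the nuclear factor I genes Nfic (-0.46) and Nfia (-0.38). Nfia stood at 157, 167, 158, 165 and 170.2 CPM in the controls and 124, 142, 128, 119.9 and 116 CPM in shKdm6b, 2 tight groups that did not overlap. Its call was lost without control 4 or 5 or shKdm6b 1, 3 or 5 (up to 0.11). Nfib and Nfix, the other two of this family, were not called (0.12 and 0.00).

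**Figure D4:**
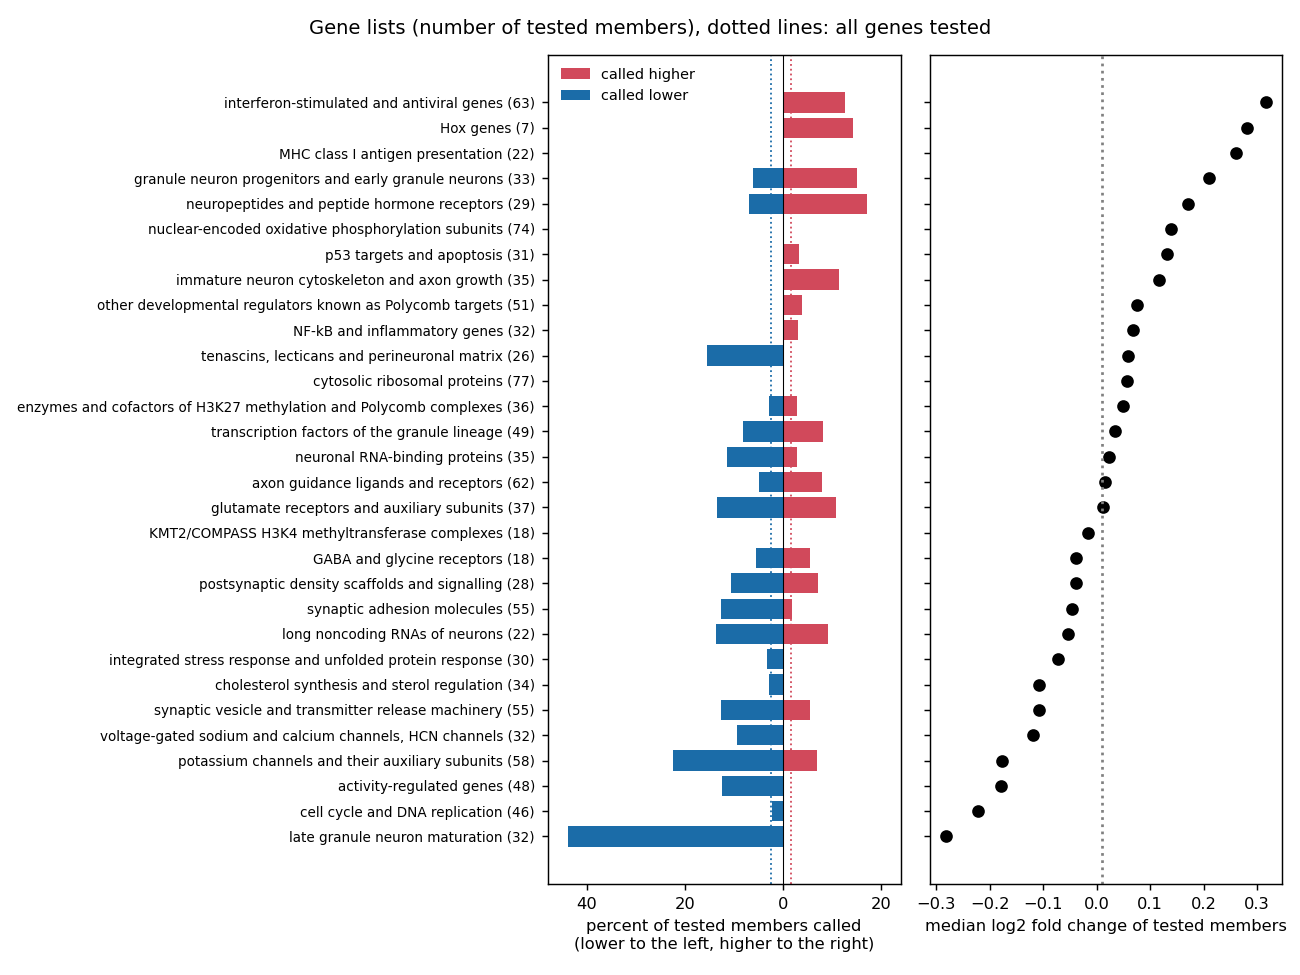
Left, the percent of tested members called higher (red, to the right) or lower (blue, to the left) for 30 gene lists, with dotted lines at the 1.72% and 2.41% of all tested genes; right, the median log2 fold change of each list, with a dotted line at that of all tested genes. The number of tested members follows each name. Members were chosen with earlier results of these data known. Late granule neuron maturation has the longest blue bar (43.8%) and the lowest median.

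Genes of transmitter release went both ways. Of 55, 7 fell and 3 rose, with a median of -0.11. The 3 that rose were Syt5, Stx1a, the syntaxin of vesicle fusion (1.04), and Doc2a, a calcium sensor of spontaneous release (0.69). Stx1a stood at 14.1, 18.1, 18.8, 25.2 and 16.1 CPM in the controls and 37.5, 35.02, 31.8, 44.3 and 37.9 CPM in shKdm6b, groups with no overlap. Syt7, a slow calcium sensor of release, moved against it, from 136, 172, 117, 64.4 and 204 CPM to 69.3, 103, 69.7, 42.1 and 105 CPM (-0.81 ± 0.11, adjusted p = 0.000462). Napb, the neuronal SNAP protein that takes SNARE complexes apart, changed by -1.098 ± 0.20 and Rab3c, a vesicle GTPase, by -0.78 ± 0.16. Thus Syt5 was higher while Syt2 and Syt7 were lower. Without the libraries numbered 4, 12 genes of this list were lower and 6 higher.

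Glutamate receptors and their auxiliary subunits, 37 genes, held 4 higher and 5 lower calls with a median of 0.01. Of 7 NMDA receptor subunits, a family chosen after values were seen, Grin2c and Grin3a (-0.81) fell; Grin3a overlaps Ppp3r2. Grin2b, the subunit of young neurons, stood at 18.7, 30.6, 19.3, 1.24 and 9.69 CPM in the controls and 43.7, 31.9, 17.7, 1.79 and 11.1 CPM in shKdm6b and was not called (0.34 ± 0.21). The 4 that rose were all auxiliary subunits. Neto1, which serves kainate receptors, stood at 0.734, 0.899, 1.18, 1.18 and 0.642 CPM in the controls and 6.84, 5.37, 1.13, 16.6 and 11.1 CPM in shKdm6b (2.82 ± 0.43); pair 3 showed no rise. Shisa7 rose by 0.79, and Cacng8, a gamma subunit of AMPA receptors, by 0.86, while Cacng2, the stargazin gene of granule neurons, fell by 0.598. Cnih2, the fourth, changed by 0.52 ± 0.14 and lost its call in each of the 10 fits without 1 library (adjusted p up to 0.174). Grm3, a metabotropic receptor, changed by -0.87 ± 0.20, lost without control 1, 2 or 3 or shKdm6b 3 or 5 (up to 0.0793). Without the libraries numbered 4, 8 of this list were higher and 6 lower.

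Postsynaptic density genes held 2 higher and 3 lower calls among 28 (median -0.04). Dlgap1, a scaffold, stood at 274, 342, 229.6, 80.1 and 301 CPM in the controls and 150.2, 206, 121, 54.9 and 152 CPM in shKdm6b (-0.82 ± 0.10, adjusted p = 0.000355), and Shank3, another scaffold, fell by 0.68. The CaM kinase II subunits, also chosen as a family after values were seen, split. Camk2b, the beta subunit, went from 541, 649.7, 413, 276 and 532 CPM to 417, 504, 304, 112 and 369 CPM (-0.599 ± 0.12) while Camk2a rose, and Camk2d (-0.13) and Camk2g (0.02) were not called. Homer2 changed by 0.41 ± 0.10; its call was lost in 7 of 10 fits without 1 library (up to 0.129) and without the libraries numbered 4 (0.0832). Among 18 GABA and glycine receptor genes, Gabrd fell and Glra2, the glycine receptor subunit of young neurons, rose (0.68 ± 0.14), with a median of -0.04.

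Synaptic adhesion genes mostly fell where they were called, 7 of 55 against 1 that rose (median -0.05). The netrin-Gs, a pair of membrane-anchored adhesion proteins, moved apart. Ntng1 stood at 14.1, 16.7, 8.61, 4.84 and 10.7 CPM in the controls and 3.12, 5.63, 1.87, 1.93 and 6.36 CPM in shKdm6b (-1.601 ± 0.32, adjusted p = 0.00731). Ntng2 stood at 3.04, 5.04, 7.67, 4.67 and 6.25 CPM and 23.6, 11.7, 14.5, 15.04 and 15.3 CPM (1.56 ± 0.30, adjusted p = 0.00601), with no overlap; it overlaps 6530402F18Rik, which was also called higher. Nrxn3, a presynaptic neurexin, fell by 0.66 with its call kept in each fit that left out 1 library. Nptx1, a secreted pentraxin that gathers AMPA receptors, fell by 0.81. Slitrk1, a ligand of presynaptic phosphatases, changed by -0.65 and Lrrtm3, a neurexin ligand, by -0.54.

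Potassium channels were the list with the most calls among ion channels: 13 of 58 fell (22.4%), 4 rose and 41 were not called, with a median of -0.18 that was below 0 in all 5 pairs. The KChIPs, small calcium sensors that bind Kv4 channels and set their A-type current, fell in 3 of 4 genes. Kcnip2 stood at 12.3, 14.3, 6.19, 7.205 and 27.7 CPM in the controls and 3.06, 6.22, 2.749, 1.47 and 6.48 CPM in shKdm6b (-1.76 ± 0.23, adjusted p = 0.000379). Kcnip3 stood at 127, 132, 96.9, 83.2 and 107 CPM and 80.05, 90.7, 77.1, 36.2 and 72.1 CPM (-0.67 ± 0.13), and Kcnip4, low throughout, at 6.39, 3.39, 2.71, 3.13 and 7.298 CPM and 1.15, 1.22, 2.749, 0.736 and 1.64 CPM (-1.62 ± 0.35), with no fall in pair 3. Their partners Kcnd1, Kcnd2 and Kcnd3, the Kv4 channels themselves, were not called (-0.06, 0.097 and 0.19).

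Other channel genes fell as well. Kcnab1 and Kcnab2, beta subunits of Kv1 channels, fell by 1.05 and 0.49, and Kcnab3 was not called (0.11). Kcna1, a pore subunit of those channels, fell by 0.65. Kcnt1, a sodium-activated channel, stood at 28.2, 19.7, 14.98, 20.3 and 62.9 CPM in the controls and 16.8, 11.4, 9.38, 5.66 and 31.98 CPM in shKdm6b (-0.999 ± 0.14). The background channel gene Kcnk3 (-0.58) and the inward rectifiers Kcnj3 (-0.81) and Kcnj9 (-0.61) fell too. Kcnc1 and Kcnc4, 2 fast potassium channels, moved in opposite directions. Kcnh3 (0.899 ± 0.21) lost its call without control 1, 3 or 4 or shKdm6b 1 or 5 (adjusted p up to 0.0818), and Kcnk2 (0.41 ± 0.09) without control 1 or 5 or shKdm6b 1, 3 or 5 (up to 0.0724).

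Voltage-gated sodium and calcium channels and HCN channels, 32 genes with their partners, held 3 lower and no higher calls (median -0.12), and all 3 were FGF homologous factors, intracellular partners of sodium channels. Fgf13 fell by 0.55, from 36.2, 43.1, 26.96, 21.4 and 22.8 CPM to 24.9, 25.9, 20.9, 14.8 and 15.3 CPM, lower in each pair. Fgf14 changed by -0.85 ± 0.19 (lost without control 2 or shKdm6b 1, adjusted p up to 0.0583) and Fgf12 by -0.62 ± 0.14 (lost without control 1 or 3 or shKdm6b 1, up to 0.0655). Fgf11, the other member, was not called (-0.28 ± 0.28). The KChIPs, Kv4 channels, Kv beta subunits, FGF homologous factors, netrin-Gs and nuclear factor I genes were set out as families after values were seen.

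**Figure D5:**
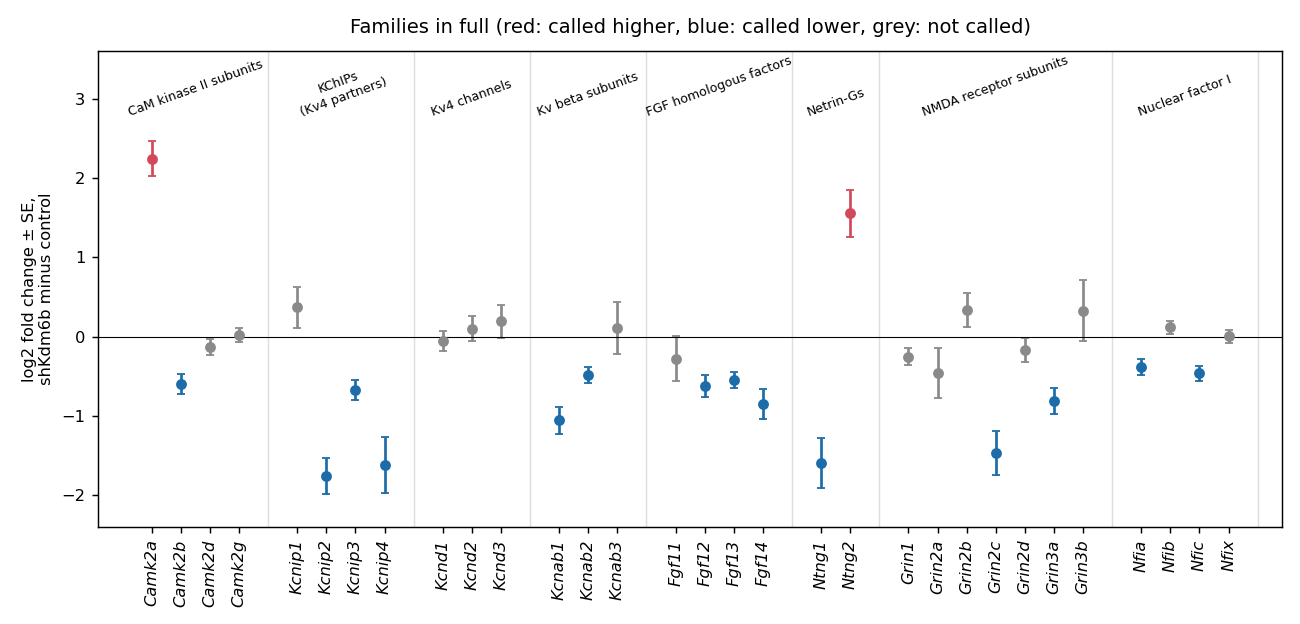
Log2 fold change, shKdm6b minus control, with SE bars, for every tested member of 8 gene families chosen after values were seen; red was called higher, blue called lower and grey not called. Camk2a and Ntng2 are the 2 red points, each beside a blue point of its own family, and the 3 Kv4 channels are grey beside 3 blue KChIPs.

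Axon guidance genes held 5 higher and 3 lower calls among 62 (median 0.02). Beside Islr2 and Unc5d, the higher ones were Efnb3, an ephrin of midline guidance (1.11 ± 0.15), Sema5b, a semaphorin (0.82 ± 0.14), and Draxin, a netrin antagonist (1.03). Efnb3 stood at 17.98, 14.9, 15.1, 24.4 and 14.3 CPM in the controls and 51.2, 42.9, 29.6, 32.8 and 29.1 CPM in shKdm6b, with no overlap. The lower ones were Epha5, Plxna4 (-0.67 ± 0.17) and Slit3 (-0.46 ± 0.12), and the last 2 lost their calls in 8 and 9 of the 10 fits without 1 library (adjusted p up to 0.133 and 0.109). Genes of growing axons and the young cytoskeleton held 4 higher and no lower calls among 35 (median 0.12, above 0 in 5 pairs), and all 4 kept their calls in each of those fits. Gap43, the growth cone protein, stood at 119, 126, 91.1, 107 and 65.9 CPM in the controls and 236, 201, 163, 157 and 148 CPM in shKdm6b, groups with no overlap (0.85 ± 0.11, adjusted p = 0.000401). Basp1, a related growth cone protein, rose by 0.43, Stmn4, a stathmin, by 0.91, and Tubb3 was the fourth.

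Matrix genes held 4 lower and no higher calls among 26, with a median of 0.06 in the fit, although the median difference within pairs was below 0 in all 5. Tnr kept its call in each fit without 1 library. Spock2, a brain proteoglycan, changed by -0.81 ± 0.18 (lost without control 5 or shKdm6b 5, adjusted p up to 0.0699). Tnxb, tenascin-X of connective tissue (-0.57 ± 0.12; lost without shKdm6b 5, 0.0546), and Cspg4, a proteoglycan of pericytes and oligodendrocyte precursors (-0.59 ± 0.14; lost without control 3, 4 or 5 or shKdm6b 3 or 5, up to 0.0943), fell beside the fibroblast and mural cell markers given above, none of which was called (0 of 18 in edgeR, 8 at an unadjusted p under 0.05; median -0.18; 4 lower without the libraries numbered 4; 7 lower and 1 higher in the fit of the 10 libraries alone; 2 lower in DESeq2 with the replicate number). Their part was not tested.

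Neuropeptides and peptide receptors, 29 tested of 53, held 5 higher and 2 lower calls (median 0.17). Nts, the neurotensin precursor, stood at 0.0524, 0, 0, 0.413 and 0.117 CPM in the controls and 2.19, 0.691, 0.147, 5.34 and 0.303 CPM in shKdm6b, so its rise (3.95 ± 0.73) was from controls at or near 0 to levels that differed widely between the shKdm6b libraries. Hcrtr2, an orexin receptor, stood at 0.472, 0.899, 0.236, 0.295 and 0.525 CPM and 3.12, 2.28, 0.982, 0.966 and 4.97 CPM, with no overlap (2.205 ± 0.46). Crhr1, the receptor of corticotropin-releasing hormone, rose by 1.004, and Adcyap1r1, the PACAP receptor, by 0.49 with pair 4 not higher (103 and 95.2 CPM). Galr1 was the fifth, and Ramp3 and Vipr1 were the 2 that fell.

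Among 35 neuronal RNA-binding protein genes 1 rose and 4 fell (median 0.02). Celf6, a splicing regulator, went from 1.78, 3.59, 2.83, 2.13 and 1.69 CPM to 6.02, 11.3, 7.07, 7.09 and 5.27 CPM, groups with no overlap (1.61 ± 0.16, adjusted p = 4.48e-05). The 4 lower calls, Mbnl2 (-0.67), Rbfox1 (-0.45), Nova1 (-0.38) and Elavl3 (-0.36), were each lost in 4 to 8 of the fits without 1 library. Of 22 neuronal long noncoding RNAs, 2 were higher and 3 lower (median -0.05). Miat and Tunar, given above, kept their calls in those fits. Snhg11 (1.21 ± 0.31), Mir124a-1hg, the host transcript of a neuronal microRNA (-0.56 ± 0.14), and H19, an imprinted RNA of mesenchymal cells (-0.83 ± 0.23), lost theirs in 7, 7 and 8 of them. H19 was highest in number 4 (1116 CPM in control 4, 585 CPM in shKdm6b 4).

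Among chromatin and developmental regulators, 14.3% of tested Hox genes, 3.92% of other Polycomb targets, 5.56% of Polycomb enzymes and cofactors and 0% of KMT2 genes were called. Over all tested genes the share was 4.14%, and the counts are too small to set these lists apart from it. Of 39 Hox genes only 7 passed the filter, and Hoxd3 was the single one called (median 0.28). Of 51 other developmental regulators known as Polycomb targets, Pitx1 and Pax2 were called higher, none lower (3.92% called; median 0.07). Pax2, a factor of cerebellar interneuron precursors, stood at 10.5, 14.8, 3.42, 17.4 and 5.02 CPM in the controls and 27.7, 20.8, 8.69, 25.2 and 14.1 CPM in shKdm6b, higher in each pair with groups that overlapped (1.05 ± 0.22). Among 36 enzymes and cofactors of H3 lysine methylation by Polycomb complexes, Kdm6b fell and Cbx8, a chromobox protein, was called higher (0.43 ± 0.11), a call lost in 9 of 10 fits without 1 library (adjusted p up to 0.202). The KMT2 complexes held 0 calls among 18 in edgeR, with 2 at an unadjusted p under 0.05.

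Activity-regulated genes held 6 lower and no higher calls among 48 (median -0.18). Nptx1 and Nr4a1, an orphan nuclear receptor induced by calcium (-0.93), kept their calls in each fit without 1 library. Egr1, an immediate-early factor, changed by -0.36 ± 0.08 (lost without control 2 or 3, adjusted p up to 0.0593) and Klf4 by -0.39 ± 0.09 (lost without control 1, 3 or 5 or shKdm6b 1, 3 or 5, up to 0.0863). Klf10 (-0.300) and Per1, a clock gene (-0.34), were the remaining ones. Without the libraries numbered 4, 10 of this list were lower and 1 higher.

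Interferon-stimulated genes held 8 higher and no lower calls among 63 (12.7%), and 62 lay above 0 (median 0.32). The fit of the 10 libraries alone called 38 higher and 1 lower, and DESeq2 with the replicate number 11 higher. Rsad2, the antiviral protein viperin, stood at 43.1, 33.9, 39.5, 26.5 and 24.3 CPM in the controls and 97.6, 49.95, 73.98, 93.9 and 58.1 CPM in shKdm6b (1.07), with no overlap. Ifit3 stood at 107, 83.03, 155, 101 and 70.3 CPM and 169.7, 92.2, 272, 205 and 101 CPM (0.63 ± 0.12). Ifit1 (0.38), Oas1b, a sensor of double-stranded RNA (0.58), Gbp5, a guanylate-binding protein (0.79), Usp18, which removes ISG15 (0.59), and Rtp4 (0.37) rose as well. Ifit3 and Ifit3b (0.65), near-identical copies whose reads may have been split between them, were the 2 that kept their calls in every fit without 1 library; those fits called 2 members without control 3, control 4 or shKdm6b 3, 3 or 4 without control 1 or shKdm6b 1, 2, 4 or 5, 7 without control 5 and 10 without control 2, and 38 members had an unadjusted p under 0.05. The core of the interferon response element, GAAA, any 2 bases and GAAA, searched on both strands, was found in the 250 bases before the promoter table's start of 21 of the 48 list members with a promoter entry (43.8%), among them the 5 called ones with an entry, and in 323 of 12033 windows of tested genes (2.68%); fewer than 80% of the list had an entry, so no comparison is drawn. The motif is known from interferon-responsive promoters, and this crossing was chosen after values were seen. The annotated spans of Ifit3 and Ifit3b begin earlier, at 34583119 and 34607530, so their windows, taken before the table's later starts, lie inside the annotated genes. For 3 of the called genes the window is printed 5′ to 3′, with matches in capitals, which read TTTC, 2 bases and TTTC where they lie on the reverse strand (Ifit3, chr19:34583279-34583528, plus strand; Ifit3b, chr19:34607707-34607956, plus strand; Gbp5, chr3:142496684-142496933, plus strand; GRCm38.p6, RefSeq).
Ifit3: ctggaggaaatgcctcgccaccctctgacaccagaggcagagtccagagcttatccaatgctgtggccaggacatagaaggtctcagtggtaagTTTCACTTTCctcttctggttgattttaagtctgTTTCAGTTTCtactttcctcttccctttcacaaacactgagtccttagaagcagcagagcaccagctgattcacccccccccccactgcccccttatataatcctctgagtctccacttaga
Ifit3b: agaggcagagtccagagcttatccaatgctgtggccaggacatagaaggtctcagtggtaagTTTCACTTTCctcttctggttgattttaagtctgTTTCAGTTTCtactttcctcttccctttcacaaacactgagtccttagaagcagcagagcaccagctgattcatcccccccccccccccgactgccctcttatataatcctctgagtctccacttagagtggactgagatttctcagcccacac
Gbp5: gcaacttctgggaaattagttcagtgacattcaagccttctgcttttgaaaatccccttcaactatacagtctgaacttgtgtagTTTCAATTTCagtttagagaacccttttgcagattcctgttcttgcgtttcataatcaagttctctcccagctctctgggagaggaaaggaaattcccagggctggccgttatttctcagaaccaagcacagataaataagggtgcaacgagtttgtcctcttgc

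Genes of MHC class I presentation held 0 calls among 22 in edgeR (8 at an unadjusted p under 0.05), and 21 lay above 0 (median 0.26; 10 were called higher in the fit of the 10 libraries alone). Of 32 NF-kB and inflammatory genes Cxcl10 was the single one called. Microglia and macrophage markers, which could carry immune genes, summed to 478 to 2700 CPM in the controls and 588 to 1372 CPM in shKdm6b, higher in 2 of 5 pairs. All 18 had a log2 fold change below 0, with a median of -0.34. Their part in the interferon values was not tested.

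The remaining lists held calls in 0 to 3.33% of tested members, against 4.14% of all tested genes. Of 46 cell cycle genes 44 were below 0 (median -0.22, below 0 in all 5 pairs), with 1 call, Rrm2, a subunit of ribonucleotide reductase (-1.06 ± 0.15), which stood at 27.5, 21.8, 71.7, 51.02 and 55.5 CPM in the controls and 13.4, 10.6, 40.2, 23.4 and 22.8 CPM in shKdm6b. Of 74 nuclear-encoded subunits of oxidative phosphorylation 67 were above 0 (median 0.14), and of 77 ribosomal protein genes 66 (median 0.06), with 0 calls in edgeR in both and 0 at an unadjusted p under 0.05. In the fit of the 10 libraries alone 9 cell cycle genes were called lower, 12 genes of oxidative phosphorylation higher and 0 ribosomal protein genes either way. Hrk was the single call among 31 p53 and apoptosis genes, Aldh18a1, an enzyme of proline synthesis, among 30 stress response genes (-0.38 ± 0.08), and Insig1, a sterol-regulated retention protein, among 34 cholesterol genes (-0.36 ± 0.07).

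Markers of other neurons moved as follows. GABAergic interneuron and Purkinje cell markers summed to 522 to 885 CPM in the controls and 422 to 755 CPM in shKdm6b, lower in 5 of 5 pairs, with Pcp2 at 0 in all 10 libraries. Gad1, which makes GABA, stood at 217, 228, 145, 109 and 87.3 CPM in the controls and 137, 146, 116, 69.8 and 51.1 CPM in shKdm6b (-0.604 ± 0.11, adjusted p = 0.00357), with overlap between the groups. Slc32a1, the vesicular GABA transporter (-0.29 ± 0.07), lost its call without control 1, 2 or 5 or shKdm6b 1, 3 or 5 (adjusted p up to 0.119). Pax2, of the same cells at an earlier stage, rose. Markers of unipolar brush and cerebellar nuclear neurons were higher in 5 of 5 pairs (117 to 228 CPM in control, 133 to 261 CPM in shKdm6b) with 0 calls among 12 in edgeR and 3 at an unadjusted p under 0.05. Astrocyte and endothelial markers held 0 calls among 18 and 12 in edgeR, with 6 and 0 at an unadjusted p under 0.05. Among oligodendrocyte and microglia markers 1 each was lower, Cspg4 and Tmem119 (-0.67 ± 0.17; lost without control 1 or 4 or shKdm6b 3 or 5, up to 0.108).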

How the data were processed

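RNA-seq libraries of cultured mouse granule neurons were used as a table of estimated counts per gene that the authors made with salmon and deposited, per the deposited table's name; the build is mm10, per the submitters' processing notes, with salmon version, annotation and filtering not given in the sources used here. Estimated counts were rounded to whole numbers. Genes were kept by edgeR's filterByExpr and normalised by TMM. The 20 libraries were fitted together by edgeR's quasi-likelihood test (edgeR 4.0.16, R 4.3.3, limma 3.58.1) with group and the number in the name as a block, and p-values were adjusted by Benjamini-Hochberg over the 15284 genes tested. The script was tested on simulated data.

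The number was taken as a pairing from the data, by the correlation of deviations from the group means. Over all groups, the 30 same-numbered pairs of libraries correlated at 0.361 to 0.881 (median 0.608). The 120 pairs of different number correlated at -0.581 to 0.572 (median -0.205). Between control and shKdm6b alone, the ranges were 0.524 to 0.881 for the same number and -0.581 to 0.476 for different numbers.

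Named genes were Kdm6b and Kdm6a; the 25 largest rises and falls among called genes with a mean of at least 5 CPM and all 5 pairs alike, clone and predicted names left out; the 8 called genes of highest mean CPM; and up to 4 called genes of smallest p per direction in each of 30 role lists and 8 marker lists, 139 genes in all. Others named are remaining called members of those lists or members of whole families. The comparison, lists and families were chosen with earlier results of these data known. Alternatives were DESeq2 1.42.0, other scaling and filters, no block, and leaving out libraries.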

Additional observations from a re-analysis of the deposited data

Results flagged for a closer look

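Among the 139 named genes, 278 groups of 5 libraries were screened for a single library standing apart by Dixon's criterion (gap over range above 0.71), and 22 did, where chance flags about 1 in 20 groups. Libraries numbered 4 accounted for 16 of the 22. Control 4 was the highest control for Pitx1 (1.42 CPM), Slc30a10 (19.1 CPM), Nnat (183 CPM), Kcnk2 (34.2 CPM), Nts (0.413 CPM), Stmn4 (105.95 CPM) and Usp18 (125 CPM), and the lowest for Boc (62.2 CPM). The library shKdm6b 4 was the lowest of its group for Kcnq5 (5.84 CPM), Gabrd (5.34 CPM), Syt2 (1.47 CPM), Boc (38.8 CPM), Shank3 (19.6 CPM) and Nova1 (37.9 CPM), and the highest for Stmn4 (159.9 CPM) and H19 (585 CPM). The other 6 were Pcp4 (13.6 CPM, lowest) and Cebpzos (4.48 CPM, lowest) in shKdm6b 5, Ramp3 in control 3 (13.5 CPM, lowest), Shisa7 in control 2 (19.97 CPM, highest), and Kcnt1 (62.9 CPM, highest) and Nr4a1 (22.5 CPM, highest) in control 5.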

How the results depend on the processing

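The count of called genes depended on the replicate block: without the pairing edgeR called 1 gene (1 higher, 0 lower), and DESeq2 with no replicate block, chosen after seeing the data, called 63 (40 higher, 23 lower). With the block, the control and shKdm6b libraries alone gave 1789 (866 higher, 923 lower), leaving out number 4 gave 990 (406 and 584), numbers 1 to 3 alone gave 445 (225 higher, 220 lower), and numbers 4 and 5 alone gave 0 (0 higher, 0 lower; 980 at an unadjusted p under 0.05). Leaving out 1 library gave 352 to 648 called genes, 138 to 286 higher and 214 to 371 lower. In the fit of the control and shKdm6b libraries alone, 9 of the 138 named genes tested there lost their call, all of them falls. They were Snap25, Syt2, Gabrd, Vipr1, Slc17a7, Kcnc1, Cntn2, Mir124a-1hg and H19 (adjusted p 0.0631 to 0.242, edgeR). The Kdm6b change was -0.79 without the block, -0.80 in DESeq2 with no replicate block, -0.84 without number 4 and -1.21 in numbers 4 and 5 alone, none of them called, and -1.02 to -0.65 without 1 library. Kdm6b was called in numbers 1 to 3 alone (-0.58) and in the control and shKdm6b libraries alone (-0.82). It was also called in DESeq2 with the replicate number (-0.90). The change of Kdm6a, shKdm6b against control, was never called there and ran from -0.29 to 0.02 without 1 library (0.0227 without control 3) and was 0.02495 in numbers 4 and 5 alone. The cause was not tested. Total counts of 16145488 to 20673156 leave genes near 1 CPM the least precise.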

Other observations

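A search made after values were seen, for genes of at least 1 CPM in controls 1 to 3 and at least 10 times lower in each of the other 7 libraries, found 4: Zan, Duoxa2, Defb20 and Olfr90. All 4 were called lower (-9.05 to -4.80) and are counted among the 369. Duoxa2, a maturation factor of dual oxidase, stood at 5.71, 9.04 and 7.61 CPM in controls 1 to 3. Defb20, a beta-defensin, stood at 7.599, 10.3 and 5.90 CPM, and Olfr90, an olfactory receptor, at 7.49, 8.59 and 6.02 CPM, with Olfr90 at 0 in the other 7. The same search for shKdm6b 1 to 3 found 0 genes.

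Genes called lower spanned a median of 40.6 kb in the genome, against 25.2 kb for genes called higher and 23.6 kb for all genes tested. Neighbouring genes were both called in 36 of 15207 adjacent pairs, 29 of them in the same direction. Of the 36, 3 pairs overlapped, all in the same direction, and may share reads. With 4.14% of all tested genes called, some such pairs arise by chance, and how many was not worked out. Fbxl22 and Usp3, 0.046 kb apart, both fell.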
